A study of Mus musculus with 4 samples.

Results

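CG sites of the mouse autosomes were examined one strand at a time, where both strands were read often enough in every library to give a methylation level of their own. A member site had at least 5 reads on the plus strand and at least 5 on the minus strand of each of the 4 libraries. These were 66585 of the 20364700 autosomal CG sites listed (0.327%), and 3.47% of the 1917405 autosomal sites that reached 10 reads in each library when the strands were added together. The rule uses read counts and not the measured levels of methylation, but it was set with earlier results of these data known. The assay was targeted bisulfite sequencing (TGBS), in which capture probes enrich chosen regions, bisulfite converts unmethylated cytosines, and the share of reads that still hold the cytosine is the level.

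The animals were wild-type C57BL/6 male mice of 11 to 12 weeks, which carried no transgene or deletion. Swim-up sperm (2 libraries) are the motile cells that swim into the upper part of the medium in which caudal epididymis and vas deferens were incubated. HRCS (2 libraries), histone replacement-completed sperm, came from the total sperm of the same parts of the tract, as heads freed from their tails by mild sonication and pelleted through 82% Percoll. The sources do not say whether the libraries of a fraction came from separate animals, so the p-values measure only the spread between these libraries, which may be technical. The labelled cell type was not checked here. Positions are those of mm9, with the cytosine of the plus strand first. Genes were not analysed here, since the annotation at hand is of another build.

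The CG dinucleotide reads the same on both strands, so each site holds a cytosine on either side of the helix. After replication the new strand is bare, and the maintenance methyltransferase DNMT1, guided by UHRF1, copies the mark from the old strand, which is why most CG sites of somatic cells are methylated on both strands or on neither. A site with the mark on a single strand is called hemimethylated. Sperm no longer divide, and their genome is highly methylated outside CpG islands, while most of its histones have given way to protamines. A bulk level by strand does not follow single molecules. Equal levels on the strands do not show that each molecule was symmetric, and unequal levels can come from a part of the cells.

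Swim-up sperm replicates 1 and 2 had 78562921 and 71379227 calls and HRCS replicates 1 and 2 had 89403347 and 78381101, a call being 1 read at 1 CG site. Between 88.7% and 89.6% of them lay on the minus strand in the notation of the tables, and 98.6% of the other covered sites fell short of 5 plus-strand reads in some library. Member sites held 7.97% to 8.63% of all calls. Their median depth was 17, 15, 20 and 17 reads on the plus strand and 27, 24, 33 and 29 on the minus strand, in that order of libraries, which is kept throughout. Of the calls at member sites 62.3% to 63.8% lay on the minus strand, against 95.7% to 96.0% at the other covered sites. The rule on reads per strand fixes this contrast. Even so, 70.01% of the members had more minus than plus reads. At 5 reads a single read moves a level by 20 points, and intervals and floors given here cover counting error only, since PCR copies of a molecule are not independent.

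Members were gathered in places rather than spread evenly. They formed 14069 stretches in which neighbouring members lay within 100 bp, and 54.8% of the members stood in stretches of 10 or more. No like share was taken for all covered sites, so this value has no comparison. The share of covered sites that were members ran from 1.98% on chromosome 15 to 8.24% on chromosome 12, with 7.11% on chromosome 17, 6.42% on chromosome 13 and 5.95% on chromosome 14. In the megabase from 19000001 of chromosome 12, 995 of 1166 covered sites were members (85.3%), and in the next megabase 891 of 1110 (80.3%). The 10 megabases with most members held 11.6% of them. The longest stretch, chr17:39979946-39983890, contained 418 members, which were all the CG sites listed there. Its mean level lay between 6.58% and 7.99% by library. Whether reads from several copies of a sequence were placed at the same site was not tested, for this stretch or for other deep sites.

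Over the members as a whole the strands carried nearly the same mean level. On the plus strand the mean level of swim-up sperm was 29.6% ± 0.424 and that of HRCS 29.6% ± 0.111 (SD, n = 2). On the minus strand it was 29.6% ± 0.417 and 29.6% ± 0.0891. The mean plus-strand level less the mean minus-strand level was -0.0320 and -0.0416 points in replicates 1 and 2 of swim-up sperm and -0.00888 and -0.0395 points in those of HRCS. All 4 values were below 0, with a mean of -0.0305 ± 0.0150 points (SD, n = 4). An exact sign-flip test gave p = 0.13, two-sided, the smallest p it can give with 4 libraries. The sign turned when more reads were required, to 0.0394 points at 10 reads per strand and 0.0846 points at 20. Between the fractions this mean difference changed by 0.0126 points (two-sided exact permutation test, p = 0.667, where 0.333 is the smallest p that 2 against 2 libraries allow).

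Site by site the strands followed each other closely. Pearson's r across the members between the plus and minus levels was 0.961 and 0.953 for the replicates of swim-up sperm and 0.963 and 0.959 for those of HRCS. These correlations are across sites of 1 library, which share depth and base composition, and are given as a description. The strands lay within 10 points of each other at 78.8% to 81.7% of the members of a library, and over 50 points apart at 377, 508, 359 and 374 sites (0.539% to 0.763%). The mean absolute difference between the strands was 5.95, 6.38, 5.81 and 6.06 points by library. The fractions overlapped closely, with means of 6.16 ± 0.302 and 5.94 ± 0.179 points (two-sided exact permutation test, p = 0.667).

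**Figure D1:**
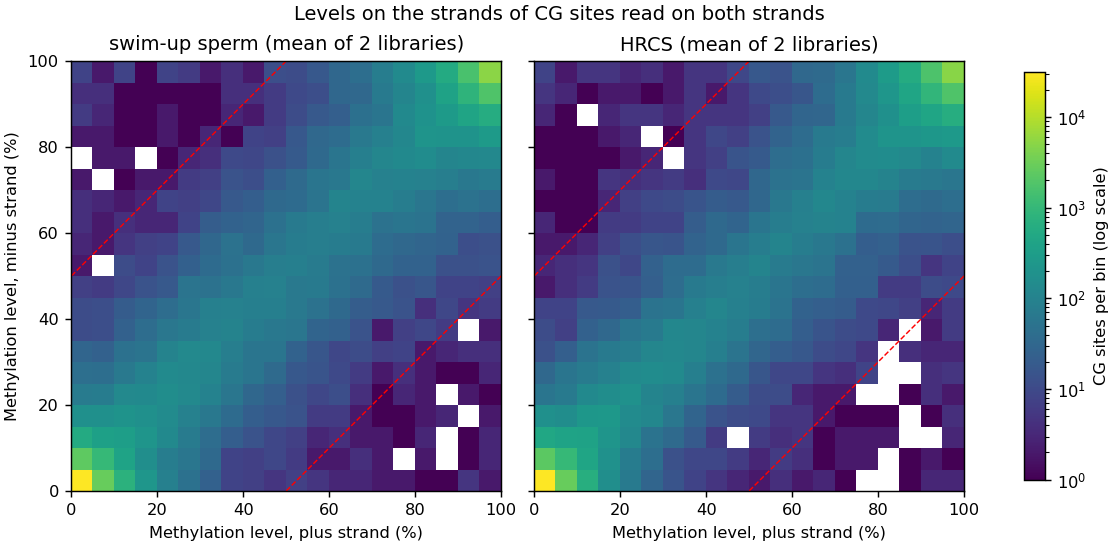
Level on the plus strand (x, %) against level on the minus strand (y, %) of 66585 CG sites, for the mean of the 2 libraries of each fraction, in bins of 5 by 5 points. Colour gives the number of sites per bin on a log scale, white bins hold none, and the dashed lines mark a difference of 50 points. Most sites lie at the lower left and upper right corners along the diagonal, and few lie beyond the dashed lines.

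Most members were low on both strands or high on both. Between 63.0% and 63.3% of the members of a library were at or below 25% on both strands, and 20.4% to 21.3% were above 75% on both. A further 6.59% to 7.38% lay between these limits on both strands. Sites at or below 25% on one strand and above 75% on the other numbered 151, 158, 122 and 138 by library, 0.183% to 0.237% of the members. Strand differences of members of middle level are given as a description, since a large difference itself brings the level with the strands added to the middle, and counting error is largest there. Of the 4722 members whose level with the strands added stayed above 25% and at or below 75% in every library, 83.8% had a mean strand difference of at most 20 points, against 97.3% of all members, and 60.2% had strands within 30 points in every library, against 91.3%. Both strands stayed between these limits in every library at 1847 of them (39.1%), and 60 were over 50 points apart in all 4 libraries.

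Agreement between the strands was set beside that between replicate libraries on the same strand. The r between replicates was 0.965 on the plus and 0.972 on the minus strand of swim-up sperm and 0.970 and 0.977 on those of HRCS, slightly above the r between strands of 1 library. In sites deep enough for a chi-square statistic with 1 degree of freedom (at least 5 expected reads in each cell, 5721 to 10154 sites), the strands of 1 library gave a mean of 4.62 to 5.13 and a median of 1.05 to 1.27. Replicates on the same strand gave a mean of 1.39 to 2.03 and a median of 0.632 to 0.853. The expected reads come from the level pooled over the sides compared, so a large strand difference can itself admit a site. The sets of sites therefore differed between strands and replicates, and these values are given as a description. At the sites admitted, the spread between strands lay above that between replicates in each of the 4 libraries, and the mean was raised more than the median.

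To find strand differences larger than the spread between libraries, methylated and unmethylated reads of each strand were compared by edgeR's quasi-likelihood test. Of 60850 sites tested, 1408 passed an adjusted p of 0.05 (Benjamini-Hochberg), which is 2.31%. The plus strand was higher at 716 of them (1.18%) and the minus strand at 692 (1.14%). Before adjustment 5685 sites (9.34%) had p under 0.05. The remaining 5735 members could not vary, as 5355 had no methylated read and 380 no unmethylated read in any library. The number of calls fell to 829 without HRCS replicate 1 and to 920 without HRCS replicate 2, of which 820 and 902 were among the 1408. limma on the levels called 132 sites of the members (0.198%), and 115 of these were among the 1408. Fisher's exact test on summed reads called 2637 sites (4.33%).

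The size of the called differences was moderate. The median absolute difference at called sites, averaged over the libraries, was 28.1 points, with quartiles of 18.5 and 39.8 points, and 203 sites exceeded 50 points. At all members the median was 1.95 points. The sign was the same in all 4 libraries at 1324 of the 1408 sites (94.0%). The deeper the site, the more often the test passed: 1.26% of tested sites whose thinnest strand had 5 to 9 reads, 2.24% at 10 to 19, 3.76% at 20 to 49 and 6.87% at 50 or more.

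Sites with strands far apart in both libraries of a fraction, with the same strand higher in each, numbered 170 in swim-up sperm (0.255% of the members) and 159 in HRCS (0.239%). The plus strand was higher at 73 and the minus strand at 97 of the swim-up sites, and at 69 and 90 of the HRCS sites. Differences over 50 points in both libraries but of opposite sign occurred at 2 sites in swim-up sperm and 1 in HRCS. As a measure of the same kind between libraries, the replicates of swim-up sperm differed by over 50 points in the same direction on both strands at 1 site, and those of HRCS at 5 sites. Of the 219 sites on either list 209 also passed the adjusted p, while 1199 sites past the adjusted p were on neither list.

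The lists of the fractions shared 110 sites, 64.7% of the swim-up list and 69.2% of the HRCS list, and no site was on both with opposite signs. These 110 sites (0.165% of the members) were over 50 points apart with the same sign in all 4 libraries, the minus strand being higher at 65 and the plus strand at 45. All 110 were among the sites past the adjusted p, by the same reads that placed them on the list. At a limit of 30 points 310 sites met the rule in all libraries, and at 70 points 44 did. With at least 10 reads per strand 60 of 32914 members met it (0.182%), and with at least 20 reads 29 of 14667 (0.198%). By the fewest reads of a strand in any library, 50 of 33671 members with 5 to 9 reads met it (0.148%), 31 of 18247 with 10 to 19 (0.170%), 26 of 11039 with 20 to 49 (0.236%) and 3 of 3628 with 50 or more (0.0827%).

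**Figure D2:**
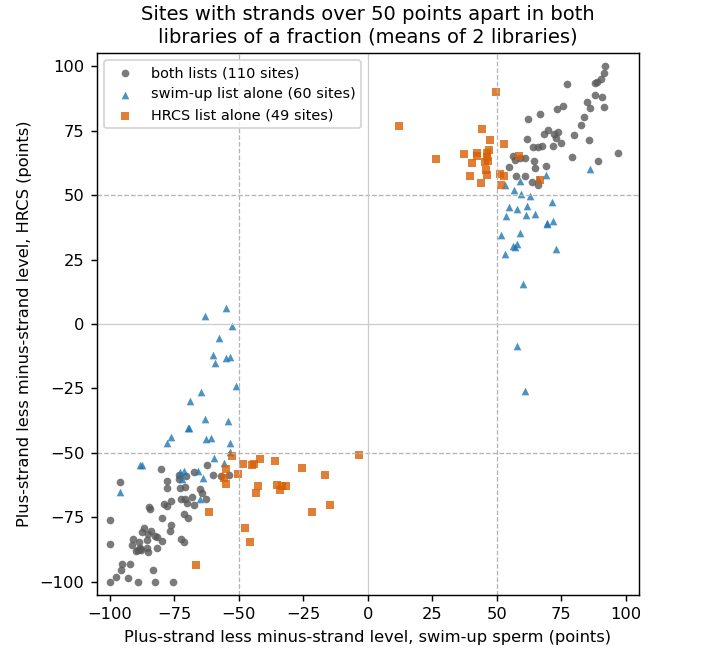
Plus-strand level less minus-strand level (points, mean of 2 libraries) in swim-up sperm (x) and HRCS (y) for the 219 sites on either list, with grey circles for the 110 sites on both, blue triangles for the 60 on the swim-up list alone and orange squares for the 49 on the HRCS list alone. Dashed lines mark 50 points, and a site can lie beyond them and be absent from a list when 1 of its libraries was at or under 50 points. The points of both lists lie in the lower left and upper right corners, and 4 triangles lie on the opposite side of 0 in HRCS.

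Sites on a single list mostly missed the other by size and not by direction. For the 60 sites of the swim-up list alone, the strand difference in HRCS, counted in the swim-up direction, had a median of 42.5 points, was above 0 at 56 sites and exceeded 30 points at 43. For the 49 sites of the HRCS list alone, the difference in swim-up sperm had a median of 45.5 points, was above 0 at all 49 and exceeded 30 points at 42. Just inside the limit of 50 points, the smaller of both replicate differences was 50.4, 50.7 and 50.7 points at the nearest swim-up sites and 50.1, 50.3 and 50.4 points at the nearest HRCS sites. Just outside it stood sites at exactly 50 points, 12 in swim-up sperm and 6 in HRCS. Of the sites over 50 points apart in 1 library, 33.5% to 45.1% were also so in its replicate, with the same sign, and 30.3% to 44.8% were so in a library of the other fraction, so these ranges overlapped.

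The levels on the strands of the shared sites are given as a description, since the rule requires a high and a low strand. Averaged over the libraries, the higher strand of the 110 sites had a median level of 92.2% (60.7% to 100%) and the lower strand a median of 11% (0% to 42.5%). The mean difference ran from 56.2 to 100 points with a median of 77.4. At 26 sites the higher strand was above 90% and the lower below 10%, and at 19 sites the lower strand lay between 25% and 50%. The lower strand had no methylated read in any library at 6 sites, and the higher strand had no unmethylated read in any library at 16.

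The read depth on the strands moved with these differences. The higher strand had fewer reads than the lower one at 83 of the 110 sites (75.5%), at 36 of the 45 with the plus strand higher and at 47 of the 65 with the minus strand higher. Among all members whose mean strand difference was not 0, the higher strand had fewer reads at 47.8%. Split by direction, this was 68.4% where the plus strand was higher and 29.0% where the minus strand was. Of the 1400 sites past the adjusted p that entered this count, 855 had fewer reads on the higher strand (61.1%). Their share was 69.0% with the plus strand higher and 52.9% with the minus strand higher. The 110 sites had a median of 314 reads over both strands and all libraries, against 192 for the members, and 2 of them lay above the 99th percentile of the members' reads. The part of read depth or capture in the strand differences was not tested.

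The largest difference with the minus strand higher stood at chr10:79221753-79221754. Its plus strand had no methylated read among 49 and 56 reads in the swim-up libraries and among 37 and 43 in the HRCS libraries. Counts of 0 in these depths allow levels of up to 6.12%, 5.36%, 8.11% and 6.98%. On the minus strand all of 24, 7, 11 and 12 reads were methylated, in the same order of libraries. No library overlapped between the strands, and the difference was -100 points in each (edgeR, adjusted p = 6.62e-33).

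This site opened the longest run of shared sites with the same sign, 4 CG sites within 18 bp at chr10:79221753-79221770. Over the run the plus strand stayed between 0% and 2.70% on 37 to 56 reads, and the minus strand between 66.7% and 100% on 6 to 24 reads. The mean differences at the other sites of the run were -95.8 points at 79221757, -92.7 points at 79221765 and -91.2 points at 79221769. Plus-strand depth was the same at all 4 sites of a library, as when the same reads span the run, so its sites are not independent observations. The last of them no longer passed with limma on the levels (adjusted p = 0.0945), which tested all 66585 members.

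The next sites with the minus strand higher lay alone. At chr9:60959731-60959732 the plus-strand level was 4.55%, 0%, 3.57% and 0% on 22 to 28 reads, and all of 6, 8, 10 and 12 minus-strand reads were methylated. The mean strand difference there was -98.0 ± 2.38 points (SD, n = 4; edgeR, adjusted p = 2.14e-18). At chr13:49321159-49321160 the plus strand had 0%, 3.85%, 4.35% and 0% and the minus strand 95.2%, 100%, 95.2% and 100%. Both strands were of similar depth at this site, with 13 to 26 and 15 to 21 reads, and the difference was -95.6 ± 3.74 points (adjusted p = 2.68e-23). At chr9:116082249-116082250 none of 9, 6, 8 and 11 plus-strand reads was methylated, while the minus strand stood at 93.1%, 85%, 100% and 100%. With so few plus reads its floors were 33.3%, 50%, 37.5% and 27.3%, still below every minus-strand level.

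Among sites with the plus strand higher, the largest difference lay at chr17:36024534-36024535. The plus-strand level was 96.3% and 93.3% in swim-up sperm and 100% in both HRCS libraries, on 27, 15, 9 and 6 reads. The minus-strand level was 5.56% in the first swim-up library and 0% in the other 3, on 7 to 18 reads. The difference averaged 96.0 ± 4.72 points (SD, n = 4; adjusted p = 1.12e-14). A neighbour 7 bp upstream, at 36024527, had 96.3%, 86.7%, 87.5% and 100% on the plus strand and the same minus-strand levels.

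The site at chr5:33078063-33078064 was the most uneven in depth of those named. Its minus strand was read 592, 409, 706 and 592 times and stood at 3.38%, 3.67%, 2.55% and 3.04%. The plus strand was read 16, 10, 34 and 15 times, with levels of 100%, 90%, 100% and 100% (difference 94.3 ± 5.35 points, adjusted p = 8.30e-52). With strands added, swim-up sperm had 5.82% ± 0.137 and HRCS 6.23% ± 1.12 (SD, n = 2), close to the level of the deep strand.

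The reverse order of depth held at chr14:119106232-119106233, where the higher strand was the deeper one. The plus strand had 97.6%, 91.3%, 100% and 96% on 42 to 50 reads, and the minus strand 4.35%, 3.85%, 0% and 5.88% on 17 to 26 reads. Its mean difference was 92.7 ± 5.41 points (adjusted p = 9.55e-32). At chr11:99039481-99039482 the plus strand had 86.2%, 89.7%, 86.7% and 100%, and no read of the minus strand was methylated in any library, with floors of 13.04% to 27.3%. At each of these 10 sites the Wilson intervals of the strands were apart in all 4 libraries, and the call held under each edgeR and limma alternative in which the site was tested. Both follow in part from the rule, which chose these sites for their large differences.

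**Figure D3:**
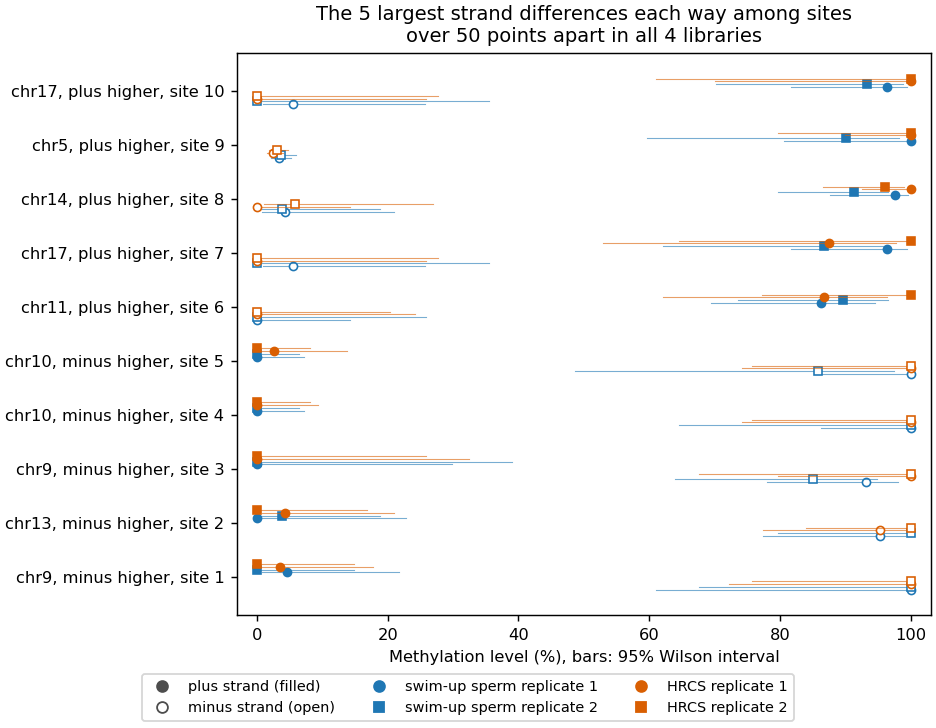
Methylation level (x, %) on the plus strand (filled) and the minus strand (open) of the 5 largest differences in each direction among the 110 shared sites, 1 row per site. Circles are replicate 1 and squares replicate 2, blue is swim-up sperm and orange HRCS, and bars are 95% Wilson intervals for counting error. The strands lie at opposite ends of the axis in every library.

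Strand differences were shared by close neighbours. The r of the plus-minus difference between a member and the next one was 0.452 to 0.479 within a library at 2 to 9 bp, 0.364 to 0.401 at 10 to 24 bp and 0.270 to 0.293 at 25 to 49 bp. It fell to 0.0882 to 0.130 at 50 to 99 bp, and beyond 100 bp it did not exceed 0.0312. Within a library close neighbours are read by the same molecules. Between a site in one library and its neighbour in another, which share no reads, r was 0.202 to 0.269 at 2 to 9 bp, 0.145 to 0.203 at 10 to 24 bp and 0.119 to 0.175 at 25 to 49 bp. At the same site in different libraries r was 0.269 to 0.316, and 0.549 to 0.613 where each strand had at least 20 reads. All of these are correlations across sites, and sites are no replicates of one another.

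**Figure D4:**
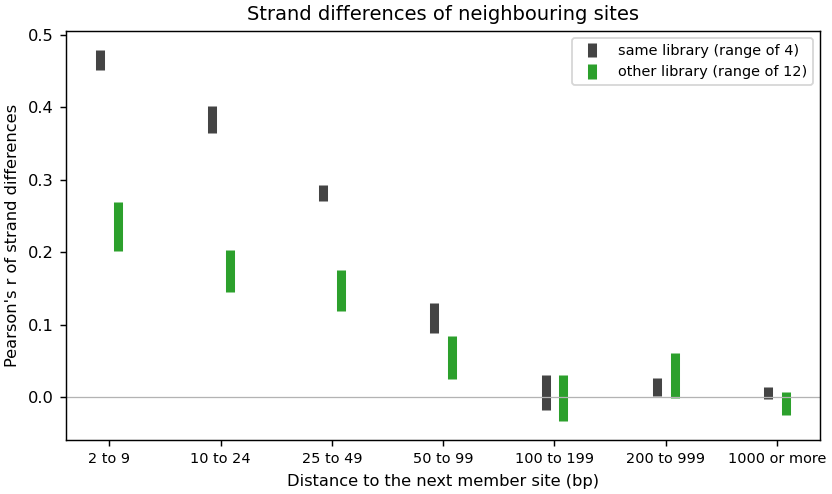
Pearson's r across pairs of neighbouring member sites (y) between their plus-minus level differences, by the distance between them in bp (x). Dark bars span the 4 libraries, each against itself, and green bars the 12 ordered pairs of different libraries. Both decline with distance and lie near 0 from 100 bp on.

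Around the 110 shared sites the nearest members leaned the same way over a short distance. Close neighbours can be read by the same molecules that placed a site on the list, so these values are given as a description. Of the neighbours that were not shared sites themselves, 17 of 19 at 2 to 9 bp had a mean difference of the same direction, with a median of 27.1 points. At 10 to 24 bp these were 12 of 14 with a median of 25.8 points, and at 25 to 49 bp 17 of 19 with a median of 22.2 points. At 50 to 99 bp the median was 0.541 points and 8 of 16 had the same direction, and from 100 to under 200 bp it was 0.953 points with 9 of 17. Farther out it was -2.17 points with 9 of 28 from 200 to under 1000 bp and 0 points with 36 of 77 beyond. Linked by gaps of at most 200 bp and the same sign, the 110 sites formed 92 runs, of which 79 were single sites and 13 held 2 to 4 sites. The widest spanned 100 bp at chr16:91534847-91534946, where 3 of 7 members were shared sites, with 2.17% to 14.7% on the plus and 84.8% to 100% on the minus strand. Gaps of 200 bp leave out wider grouping. On chromosome 5, shared sites stood at 33066515, 33071908 and 33081995 with the minus strand higher, and at 33078063 and 33080240 with the plus strand higher. This group was chosen after its values were seen, and wider grouping was not counted.

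The share of these sites was highest where CG sites were sparse. CG density was the number of CG sites listed in the same 200 bp window, counted from the start of the chromosome. With 1 to 2 CG sites 42 of 6729 members were over 50 points apart in all libraries (0.624%), with 3 to 5 sites 35 of 14260 (0.245%), with 6 to 9 sites 19 of 12876 (0.148%) and with 10 to 14 sites 12 of 10855 (0.111%). None of 8795 members with 15 to 19 sites met the rule, which allows a share of up to 0.0341% if sites were independent. Neighbours share reads, so this limit is too narrow. With 20 or more sites 2 of 13070 met it (0.0153%). The share of tested sites past the adjusted p fell likewise from 4.90% to 0.561% at 15 to 19 sites, and was 2.02% at 20 or more. There 225 sites were called. The stretch of 418 members on chromosome 17 held 37 calls among its 418 sites tested (8.85%, against 2.31% of all sites tested). It held 1 shared site. How many of its calls lay at 20 or more CG sites was not counted, and its part in that share was not tested. That stretch was chosen after its values were seen.

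The mean level moved with density too, from 72.0% to 72.9% by library at 1 to 2 CG sites down to 3.82% to 4.35% at 20 or more. Members at most 25% in every library, with strands added, were shared sites in 13 of 41954 cases (0.0310%), and those above 75% in 2 of 14044 (0.0142%). A strand difference of over 50 points leaves the added level of evenly read strands near the middle, so these shares follow in part from the rule. The shared sites were found on 18 of the 19 autosomes, with 12 of 3156 members on chromosome 10 (0.380%) and 0 of 1494 on chromosome 19. The count of 0 allows a share of up to 0.201% if sites were independent, against 0.165% of all members. The 10 megabases richest in members held 8 of them, 0.103% of the members there.

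**Figure D5:**
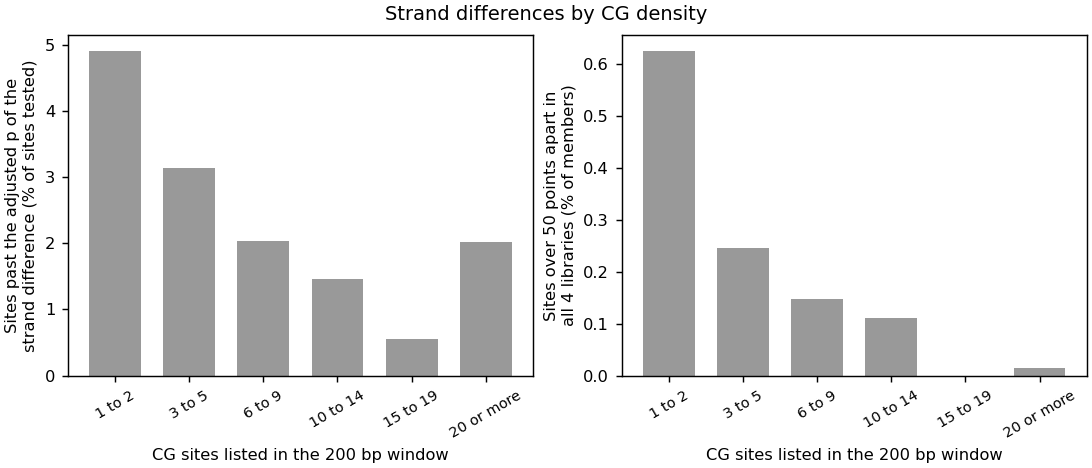
Share of tested sites past the adjusted p of the strand difference (left, %) and share of members over 50 points apart in all 4 libraries (right, %), by the number of CG sites in the 200 bp window. Both decline from 1 to 2 CG sites to 15 to 19, where the right panel has no site, and the left panel is higher again at 20 or more.

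The fractions were compared on each strand. The r between the mean levels of swim-up sperm and HRCS was 0.983 on the plus and 0.987 on the minus strand. For 1 library of each fraction it was 0.963 to 0.970 and 0.971 to 0.977, which overlaps the values between replicates. The mean levels differed by -0.0185 points on the plus and -0.0311 points on the minus strand (HRCS less swim-up sperm), within the spread of the replicates on either strand (two-sided exact permutation test, p = 1 for each).

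With the strands added, no member passed the adjusted p between the fractions. The test was fitted to all 1497189 covered autosomal sites that had both methylated and unmethylated reads, of which 5 passed (0.000334%), and 0 of the 60850 members tested were among them (0%). The count over all covered sites was 2 without either swim-up library or without HRCS replicate 2, and 4 without HRCS replicate 1, with 0 members among them each time. Without adjustment 1523 members (2.50%) had p under 0.05, close to the 2.49% of all sites. Fisher's exact test on summed reads, which has no spread between replicates, called 68 members (0.112%) and 182 of the 1497189 covered sites in all (0.0122%). A p that misses the threshold at this depth and with 2 libraries a fraction does not show that a site had the same level in both.

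Fitted on 1 strand at a time, an alternative added after the data were seen, the test called 3 members, all lower in HRCS on the strand called. On the plus strand 1 of 48332 sites passed (0.00207%), and on the minus strand 2 of 54637 did (0.00366%). At chr5:14933977-14933978 the minus-strand level was 81.3% and 82.0% in swim-up sperm, against 42.1% and 50% in HRCS, on 136 to 224 reads (adjusted p = 0.00285). The plus strand of that site had 74.6% and 75.9% in swim-up sperm, against 79.1% and 80% in HRCS. On the minus strand HRCS lay below both swim-up libraries by over 30 points, and on the plus strand slightly above them.

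A like picture was seen at chr8:56202723-56202724, where the minus strand had 96.8% and 97.8% in swim-up sperm, against 76.0% and 68.5% in HRCS (adjusted p = 0.00152). The plus strand there had 95.3% and 86.0% in swim-up sperm, against 95.8% and 84.5% in HRCS, so the fractions overlapped. At chr11:3028817-3028818 the plus strand had 92.4% and 97.4% in swim-up sperm, against 69.8% and 63.4% in HRCS (adjusted p = 0.0425), and the minus strand 95.2% and 93.2% against 95.3% in both HRCS libraries. With strands added these 3 sites had adjusted p = 0.740 each (edgeR). edgeR's test of whether the strand difference itself differed gave an adjusted p = 1 for each.

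Over all members, 0 of 60850 sites passed the test of a strand difference that differs between the fractions (0%), by edgeR's quasi-likelihood test, and 0 of 66585 did by limma on the levels (0%). Unadjusted, 1390 sites (2.28%) had p under 0.05 with edgeR and 4211 (6.32%) with limma. This count does not show that the strand differences were alike, since on simulated data both tests missed nearly all such differences, large ones included. The simulated differences were planted at sites of low or high level, so sites of middle level were not covered. Of sites on a single list, the largest change lay at chr4:3347204-3347205, where the plus strand had 58.3% and 75% in swim-up sperm, against 20% and 57.1% in HRCS, and the minus strand 0% and 11.1% against 50% and 78.9%. These levels rest on 7 to 19 reads each. The strand difference was 61.1 ± 3.93 points in swim-up sperm and -25.9 ± 5.80 points in HRCS (SD, n = 2; edgeR, adjusted p = 1).

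The 5 other sites named for their change between the fractions had 5 to 42 reads per strand and library. On the swim-up list, chr15:41057608-41057609 had a difference of 57.8 ± 3.14 points in swim-up sperm and -8.48 ± 9.64 points in HRCS, with 5 to 8 reads on the minus strand. The site chr4:122675130-122675131 had -63.1 ± 13.04 points in swim-up sperm and 3.15 ± 1.97 points in HRCS. On the HRCS list, chr13:61914560-61914561 had 12.1 ± 5.27 points in swim-up sperm and 76.7 ± 12.8 points in HRCS. Its plus strand was at 97.6% to 100% in every library, while the minus strand had 84.2% and 91.7% in swim-up sperm, against 30% and 14.3% in HRCS. The change of 64.6 points there had an adjusted p = 1 like the rest. The sites chr2:131576560-131576561 and chr16:77720277-77720278 went from -14.7 ± 6.59 to -70.1 ± 9.32 points and from -21.7 ± 0.198 to -72.9 ± 16.03 points. All were chosen for these differences, and none passed the adjusted p (adjusted p = 1 by edgeR for each).

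Members were finally set beside the other covered sites, with strands added. The mean level of the members was 29.5% ± 0.256 (SD, n = 4) and that of the other 1850820 sites 31.1% ± 0.121. The difference of -1.60 ± 0.141 points had the same sign in all 4 libraries (exact sign-flip test, two-sided, p = 0.13, the smallest possible). Against other sites with 10 or more minus-strand reads in every library and fewer than 5 plus-strand reads in some, it was -1.01 ± 0.144 points. Its sign depended on CG density. Members less other sites gave -5.49 ± 0.282 points at 1 to 2 CG sites, -3.82 ± 0.206 points at 3 to 5 and -0.503 ± 0.136 points at 6 to 9. Members were higher by 4.94 ± 0.117 points at 10 to 14 CG sites, by 3.21 ± 0.0918 points at 15 to 19 and by 2.71 ± 0.213 points at 20 or more. Each of these had the same sign in all 4 libraries. At the limit of the rule, the 15986 sites whose thinnest strand had 4 reads gave an r between strands of 0.934 to 0.947, and the 10881 members whose thinnest strand had 5 reads gave 0.943 to 0.955.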

How the data were processed

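TGBS libraries were made from 300 ng of genomic DNA per sample, fragmented to about 500 bp, captured (SureSelect), tagged by post-bisulfite adapter tagging and amplified for 5 PCR cycles. Single reads of 100 cycles were sequenced, with 2 libraries per lane. Which libraries shared a lane is not given in the sources used here. Bmap placed the reads on mm9. The tables that the authors deposited, 1 for each library, give raw read counts by CG site and strand, without normalization. Removal of duplicates and strand handling are not given in the sources used here. The columns have no names. Of the 2 counts in a row, the smaller was read as the methylated one, which puts windows of 20 or more CG sites at low levels. If it counted unmethylated reads, every level would be 100% less the value given and every strand difference would change sign.

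Each plus-strand row was paired with the minus-strand row 1 base to the right. Sites with at least 5 reads per strand in every library were kept. Levels were compared as means over sites, 1 value per library, with exact permutation and sign-flip tests. edgeR's quasi-likelihood test used a term for each library and strand, which takes up read depth alone. Further terms were methylated reads, methylated reads in HRCS, and methylated reads on the plus strand, with 1 dispersion and no trend. Methylation had no term per library in edgeR, so the strands of a library were not paired there. The fit by limma on the levels had such a term. Sites with only methylated or only unmethylated reads were left out. All p-values were adjusted over every site tested, at a threshold of 0.05. An interaction term tested whether strand differences depend on the fraction. The test between the fractions used reads of both strands at all autosomal sites that reached 10 reads in each library. Replicate numbers were not taken as pairs (r of the deviations of same-numbered libraries -0.00252 for levels and -0.00112 for strand differences). At this depth such an r cannot exclude a shared preparation or lane.

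The tests were tested on simulated data, with changes planted only at sites of low or high level. There edgeR's strand test recovered 166 of 200 changes, but 23 of 50 at 20 points. Its test between the fractions recovered 132 of 200, but 5 of 50 at 20 points. That simulation held 200000 covered sites drawn at random, fewer than the real test. limma and the tests of the strand difference between the fractions recovered hardly any. Models were run with edgeR 4.0.16 and limma 3.58.1 (R 4.3.3), and the rest with scipy 1.17.1, numba 0.67.0, numpy 2.4.6, pyarrow 21.0.0, pandas 2.3.3 and matplotlib 3.10.9 (Python 3.11.15). Wilson intervals are at 95%, and the limit of a count of 0 is 3 reads over the depth. For a count of sites it is 3 over the number of members, taken as independent.

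The members, tests and lists were chosen with earlier results of these data known. Sites are named by rule: the 5 largest mean differences each way among sites over 50 points apart in all 4 libraries, the 3 per fraction on one list whose difference lies farthest from the other fraction, sites past the adjusted p between fractions or of the interaction (none with strands added), and the longest run. The 3 sites called on 1 strand, the widest run and the largest stretch were chosen after their values were seen. So was the group of shared sites on chromosome 5. Alternatives were minimums of 10 and 20 reads, limits of 30 and 70 points, summed reads, the X chromosome added, sites of very high coverage left out, a dispersion trend, sites without variation kept, other tests, a replicate block, and each library left out in turn.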

Additional observations from a re-analysis of the deposited data

Results flagged for a closer look

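Of the 60 sites over 50 points apart in both libraries of swim-up sperm and not of HRCS, 3 had the opposite sign in both HRCS libraries. Of the 49 such sites of HRCS, 0 had it in both swim-up libraries. Opposite signs were not counted over all members. At chr4:3347204-3347205 the plus strand was higher by 61.1 points in swim-up sperm and the difference was -25.9 points in HRCS. At chr15:41057608-41057609 it was 57.8 and -8.48 points, and at chr4:122675130-122675131 it was -63.1 and 3.15 points. The sites were selected for their change between the fractions. edgeR's test of that change gave unadjusted p = 0.000719, 0.00703 and 0.00148 and adjusted p = 1 for each.

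Sequences outside the autosomes also held sites read on both strands. On the X chromosome, 1324 sites had at least 5 reads per strand in every library, and 2 of them were over 50 points apart with the same sign in all 4 libraries (0.151%). On random and unplaced contigs 769 sites had these reads, and 2 were over 50 points apart in all libraries (0.260%). No site of the Y chromosome or of mitochondrial DNA had them.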

How the results depend on the processing

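Depth sets what can be seen, since 33671 of the members had a strand with 5 to 9 reads in some library, where a difference of 50 points rests on a few reads. PCR copies, if kept, and reads that span several sites can make counts less independent than the tests assume. The share of PCR copies was not measured.

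With at least 10 or 20 reads per strand the mean plus-minus difference was 0.0394 and 0.0846 points, of opposite sign to the main value. The mean absolute difference averaged over the libraries fell from 6.05 to 5.26 and 4.57 points. Sites over 50 points apart numbered 88 and 38 in swim-up sperm, 79 and 38 in HRCS and 60 and 29 in all libraries. They were counted among 32914 and 14667 members, a share of 0.182% and 0.198% for all libraries, against 0.165% in the main setting. The r between the fractions was 0.987 and 0.990 on the plus strand and 0.989 and 0.991 on the minus strand, and at 20 reads 915 sites passed the strand test among fewer sites. At limits of 30 and 70 points the lists held 603 and 67 sites in swim-up sperm, 589 and 61 in HRCS and 310 and 44 in all libraries. limma, which recovered hardly any change in simulated data, called 132 and Fisher's exact test 2637 strand differences (4.33%). Between the fractions Fisher's exact test called 68 of 60850 members and 182 of 1497189 covered sites, and edgeR called 1 on the plus and 2 on the minus strand alone.

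With each library left out in turn, strand calls ranged from 829 to 1206, and the swim-up and HRCS lists from 170 to 508 and from 159 to 374, the larger counts where 1 library alone defined the list. The list of all libraries ranged from 124 to 127. The r between the fractions ranged from 0.972 to 0.977 on the plus and from 0.978 to 0.982 on the minus strand, where a fraction was represented by 1 library. The change of the mean plus-minus difference between the fractions ranged from -0.00274 to 0.0279 points and turned sign without HRCS replicate 1. That of the mean absolute difference ranged from -0.440 points without swim-up sperm replicate 1 to -0.0127 points without swim-up sperm replicate 2. Of all covered sites 2 to 4 passed between the fractions, against 5 with every library.

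With the replicate number as a block, 0 members passed between the fractions and 0 in the test of the strand difference between them, as without it. Unadjusted counts fell from 1523 to 806 and from 1390 to 890, and the latter to 654 with a dispersion trend. At 10 and 20 reads per strand the latter were 886 of 31468 and 462 of 14454 sites. Those shares of 2.82% and 3.20% were larger than the 2.28% of the main setting. The mean absolute difference changed by -0.226 points and the mean plus-minus difference by 0.0126 points in both designs, and with 2 pairs no p below 0.5 was possible. The numbers were not taken as pairs in the main design. With a dispersion trend 1250 sites passed the strand test, 1092 of them among the 1408. Members less other sites gave -1.01 points against sites deep on the minus strand alone. The correlation between the strands and the mean level of members less other sites kept their sign in every alternative run for them. A correlation this high could hardly change sign. So did the strand differences of the named sites keep theirs, but these were chosen for large differences or large changes, which largely fixed that outcome. Of the named sites, 1 on chromosome 10 missed the threshold with limma (adjusted p = 0.0945). The cause of the changes named here was not tested.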
